A study of Mus musculus with 6 samples.

Results

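The genes described are Dusp1, Dusp2, Dusp4, Dusp5, Dusp6, Dusp10, Spry1 and Spry2, which encode inducible brakes on the mitogen-activated protein kinases (MAPK). They were chosen by name, as every probe set whose symbol in the platform annotation is exactly one of these, which gave 10 probe sets for 8 genes among 45037 probe sets and 18193 named genes. RNA had been measured on Affymetrix mouse arrays in 6 samples of CD4 T cells from C57BL/6 lymph nodes. These were 3 control samples, transduced with a bHLH-ER retrovirus, and 3 samples transduced with an E47-ER retrovirus. E47 is one of the E proteins, transcription factors with a basic helix-loop-helix (bHLH) domain, and is made from the Tcf3 gene. ER denotes the estrogen receptor domain that lets tamoxifen bring a fused protein into the nucleus. For the bHLH-ER construct the labels give this name and no further content.

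The cells of both groups started as CD4+CD25- T cells and are labelled as regulatory T cells (Treg) induced in vitro. Culture lasted 2 days on 2 µg/ml anti-CD3 and 1 µg/ml anti-CD28, with TGF-β1 at 5 ng/ml and 200 U/ml of IL-2, and the virus went on at day 1. CD4+Thy1.1+ cells were then sorted and held for 6 hours with 1 µM tamoxifen, IL-2 and the antibodies. Every sample therefore received T cell receptor stimulation and tamoxifen, and no unstimulated sample or sample without tamoxifen was analysed here. The 3 experiments gave 1 control and 1 E47 sample each. They used mice of 7, 8 and 9 weeks, with 3, 3 and 4 animals pooled per sample.

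T cell receptor and CD28 signals activate the kinases ERK, JNK and p38, and these in turn induce genes whose products switch them off again. Dual-specificity phosphatases (DUSPs) remove the activating phosphates from both the threonine and the tyrosine of a MAPK. Dusp6 and Dusp5 act mainly on ERK, in the cytoplasm and in the nucleus respectively. Dusp1, Dusp2 and Dusp4 are nuclear enzymes with broader targets, and Dusp10 acts mainly on JNK and p38. The Sprouty proteins Spry1 and Spry2 act further upstream, between the receptors and the kinase cascade.

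In mouse build GRCm38.p6 Dusp6 lies at chr10:99263231-99267489, Dusp5 at chr19:53529145-53541809 and Spry1 at chr3:37639947-37644599. Promoter sequence for 7 of the 8 genes (all but Dusp4) was taken from RefSeq in the same build, as the 250 bases before the annotated start. Those of Dusp6, Dusp5 and Spry1 are shown. Dusp6 had the largest difference between E47 and control, Dusp5 the largest in the opposite direction, and Spry1 the lowest p for a difference between experiments. Capitals mark the E-box CANNTG, the motif class that E47 binds, and the CArG box, the site of serum response factor.
Dusp6 promoter, chr10:99262981-99263230, plus strand: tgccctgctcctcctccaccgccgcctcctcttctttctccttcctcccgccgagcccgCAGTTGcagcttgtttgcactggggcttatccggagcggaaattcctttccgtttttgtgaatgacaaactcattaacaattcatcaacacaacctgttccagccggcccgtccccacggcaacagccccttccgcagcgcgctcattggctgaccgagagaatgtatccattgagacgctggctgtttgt
Dusp5 promoter, chr19:53528895-53529144, plus strand: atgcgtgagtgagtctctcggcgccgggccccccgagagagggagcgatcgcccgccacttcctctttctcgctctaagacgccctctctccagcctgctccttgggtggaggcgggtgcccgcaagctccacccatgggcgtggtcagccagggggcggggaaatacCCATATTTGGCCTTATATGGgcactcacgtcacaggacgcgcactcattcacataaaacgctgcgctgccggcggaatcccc
Spry1 promoter, chr3:37639697-37639946, plus strand: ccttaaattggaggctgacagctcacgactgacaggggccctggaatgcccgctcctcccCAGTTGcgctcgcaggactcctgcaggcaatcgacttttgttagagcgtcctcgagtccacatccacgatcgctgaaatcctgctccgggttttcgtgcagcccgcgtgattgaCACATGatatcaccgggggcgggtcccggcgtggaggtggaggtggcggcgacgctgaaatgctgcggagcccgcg
An E-box was present in 5 of the 7 promoters (Dusp1, Dusp2, Dusp6, Spry1 and Spry2), while 66.2% of all 32851 promoters in the table hold one within 250 bases. The E-box of Dusp6 reads CAGTTG and lies 191 bases before the start, and the pair in Spry1 read CAGTTG and CACATG at 190 and 76 bases. The forms CAGCTG, and CACCTG with its complement CAGGTG, were in 0 of the 7 (4271 and 5657 of all 32851 promoters hold them). The AP-1 motif TGANTCA was also in 0 (6.75% of all). The cyclic AMP response core TGACG was present in Dusp1 and Dusp5 (17.8% of all). A CArG box occurs in 1.47% of all promoters, and Dusp5 had 2, which lie side by side at 82 and 72 bases. The CArG box was added to the search after the sequences had been seen. All motifs were searched on both strands, and the 3 E-box forms overlap with CANNTG by construction. A match is only a match of letters, and no binding was measured.

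Each array's values are given as log2 of the authors' normalized intensity, and levels are compared only within a probe set. Array medians lay between 34.3 and 35.4 on the linear scale, and correlations between arrays over all probe sets between 0.987 and 0.996. All 6 of the 8 listed T cell markers that were measured (Cd3d, Cd3e, Cd3g, Cd4, Cd5 and Cd28) lay above the median of all values on every array, as did the 5 Treg markers. Of the myeloid and dendritic markers 4 of 7 lay below that median on every array. The same held for Cd79a among 5 of 6 B cell markers measured and for Ncr1 among 3 of 4 NK cell markers measured. Other markers of these lists lay above the median on all 6 arrays: Csf1r of the myeloid list, Cd22 of the B cell list, Klrd1 and Klrk1 of the NK list, and both CD8 markers. The Treg transcription factor Foxp3 was at 8.16 and 7.83 in the control and E47 samples of experiment 2 and between 6.07 and 6.42 in the other arrays, so experiment 2 stood apart from the rest in this marker. The introduced gene did not check the labels. The 3 Tcf3 probe sets had log2 differences of -0.01, 0.28 and 0.02 between E47 and control, and none passed the test (adjusted p = 0.973, 0.592 and 0.965). The position of those probe sets on the transcript, inside or outside the cloned segment, was not analysed here.

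E47 was set against control, within experiments, to ask whether the feedback genes of the MAPK cascades differ when E47 is brought into the nucleus. In the paired fit 0 of the 10 probe sets passed an adjusted p of 0.05 in limma, where 0.271% of all probe sets did. At an unadjusted p under 0.05 there was 1, Dusp6, against 9.06% of all probe sets. The control and E47 ranges overlapped for all 10, whereas 11.2% of all probe sets had groups that did not overlap. The differences were small: all 10 of the 95% intervals, which are not adjusted for the number of probe sets, lay within 1 log2 unit either way, that is, within a 2-fold change. Without the replicate block 0 of 10 passed as well (0.115% of all probe sets did), and 0 passed whichever pair was left out. A p that misses the threshold does not show that the levels were equal. Summed linear marker intensities were also set side by side, without a test of the sums. The 5 Treg markers summed to 12097.4 to 13545.7 in control and 9874.2 to 11942.9 in E47 samples, and the 7 myeloid markers to 227.7 to 246.8 and 209.7 to 224.0. The brightest marker weighs most in such a sum (Tnfrsf18 at 12.25 to 12.86 and Csf1r at 6.44 to 6.75, log2). No Treg or myeloid marker passed in the paired fit (adjusted p = 0.447 to 0.959 and 0.523 to 0.902). The 2 CD8 markers summed to 139.9 to 209.1 in control and 188.9 to 326.9 in E47 samples. These ranges overlap, but both CD8 markers were higher in E47 in all 3 pairs (adjusted p = 0.365 for Cd8b1 and 0.607 for Cd8a, which was at 6.21 in both samples of experiment 1). The part of these shifts in the values below was not tested. In bulk samples such as these, sorted for CD4 and Thy1.1, fewer cells that make a transcript and less transcript per cell cannot be told apart.

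**Figure D1:**
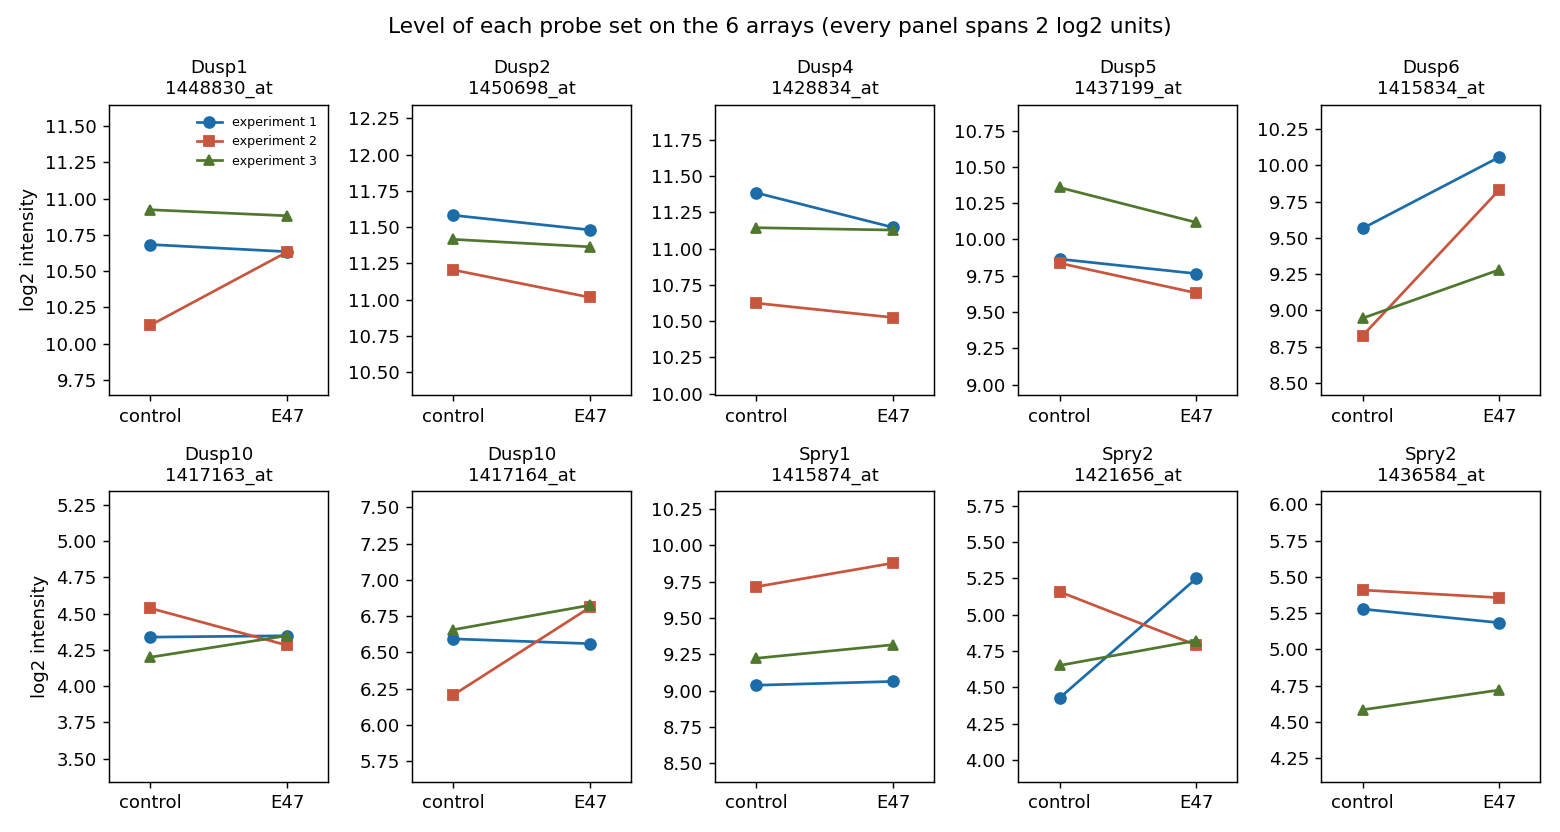
Level of each of the 10 probe sets as log2 intensity (vertical axis, 2 units in every panel) in control and E47 samples (horizontal axis), with a line joining the 2 samples of an experiment. In the Dusp6 panel all 3 lines climb, from 9.57, 8.83 and 8.95 to 10.06, 9.83 and 9.28. Its mean difference (0.61) is the largest of the 10, although 1 line of Spry2 (1421656_at) climbs more steeply than the Dusp6 line of the same experiment.

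Among the ERK-directed phosphatases, Dusp6 (1415834_at) measured 9.57, 8.83 and 8.95 (log2) in the control arrays of experiments 1, 2 and 3. The matching E47 arrays measured 10.06, 9.83 and 9.28. The E47 sample was the higher of the pair in all 3 experiments, yet the control array of experiment 1 lay above the E47 array of experiment 3. The pair differences were 0.49, 1.01 and 0.33, and their mean was 0.61 (SE 0.14), a 1.53-fold difference with a 95% interval of 1.20 to 1.95. Its unadjusted p was 0.00581 and its adjusted p over all probe sets 0.312 in the paired fit, and 0.827 without the pairing. Across the alternatives the adjusted p of Dusp6 ran from 0.0601 to 1.00 and its log2 difference from 0.41 (without experiment 2) to 0.75 (without experiment 3). Dusp6 was therefore the gene with the largest difference of the 8, and it did not pass in any of the fits run.

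Dusp5 (1437199_at), the nuclear ERK phosphatase, pointed the other way. Its log2 levels were 9.86, 9.84 and 10.36 in control and 9.76, 9.63 and 10.12 in E47 samples. The E47 sample was the lower of each pair, by a small margin, and experiment 3 was the highest in both groups. The mean difference was -0.18 (SE 0.08, 95% interval -0.39 to 0.02, adjusted p = 0.590). In folds that interval runs from 0.764 to 1.02.

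The nuclear phosphatases with broader targets showed no common direction. Dusp1 (1448830_at), an immediate early gene, had log2 levels of 10.68, 10.13 and 10.92 in control and 10.63, 10.63 and 10.88 in E47 samples. The control sample of experiment 2 was the low array, and the other 5 lay between 10.63 and 10.92. The mean difference was 0.14 (SE 0.13, adjusted p = 0.786), and it came from experiment 2, with pair differences of -0.05, 0.51 and -0.04. Without experiment 2 it was -0.05.

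Dusp2 (1450698_at), a phosphatase known from activated T cells, had log2 levels of 11.58, 11.20 and 11.42 in control and 11.48, 11.02 and 11.36 in E47 samples. Dusp4 (1428834_at) had 11.38, 10.62 and 11.14 in control and 11.15, 10.53 and 11.13 in E47 samples. For both genes the E47 sample was the lower of each pair and experiment 2 was the lowest in both groups. The mean difference was -0.11 for Dusp2 (SE 0.08, 95% interval -0.32 to 0.09, adjusted p = 0.715). For Dusp4 it was -0.12 (SE 0.09, 95% interval -0.34 to 0.10, adjusted p = 0.723).

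Dusp10, the JNK and p38 phosphatase, is read by a pair of probe sets. The brighter (1417164_at) had log2 levels of 6.59, 6.21 and 6.66 in control and 6.56, 6.81 and 6.83 in E47 samples, so the control sample of experiment 2 was again the lowest. Its mean difference was 0.25 (SE 0.14, adjusted p = 0.647), with pair differences of -0.03, 0.60 and 0.17. The dimmer (1417163_at) stayed between 4.20 and 4.54 on all 6 arrays, below the median of all values (5.12), and had a difference of -0.03 (SE 0.11, adjusted p = 0.942). The 2 probe sets thus gave differences of opposite sign, neither past the test.

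Of the Sprouty genes, Spry1 (1415874_at) had log2 levels of 9.04, 9.72 and 9.22 in control and 9.06, 9.88 and 9.32 in E47 samples. The samples of each experiment lay close together, with E47 the higher in each pair by 0.03, 0.16 and 0.09. The mean difference was 0.09 (SE 0.08, 95% interval -0.11 to 0.30, adjusted p = 0.761). Its interval ends at 1.23-fold higher.

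Spry2 was dim on both of its probe sets. The first (1436584_at) had log2 levels of 5.28, 5.41 and 4.58 in control and 5.18, 5.36 and 4.72 in E47 samples, which put experiment 3 lowest in both groups. Its difference was -0.0034 (SE 0.09, adjusted p = 0.994), and the sign turned with median centring or quantile normalization. The second (1421656_at) had 4.43, 5.16 and 4.65 in control and 5.25, 4.79 and 4.82 in E47 samples. Its pairs disagreed (0.83, -0.37 and 0.17), and its mean difference of 0.21 had the widest interval of the 10 (SE 0.22, 95% interval -0.33 to 0.75, adjusted p = 0.802). Of the 6 arrays, 4 lay above the median of all values on the first probe set and 2 on the second.

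Across the 10 probe sets 5 were higher and 5 lower in E47, and the median log2 difference was 0.05, against -0.02 over all probe sets. The direction was the same in all 3 pairs for 5 of them, up for Dusp6 and Spry1 and down for Dusp2, Dusp4 and Dusp5. Of all probe sets 31.0% kept their direction in this way.

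**Figure D2:**
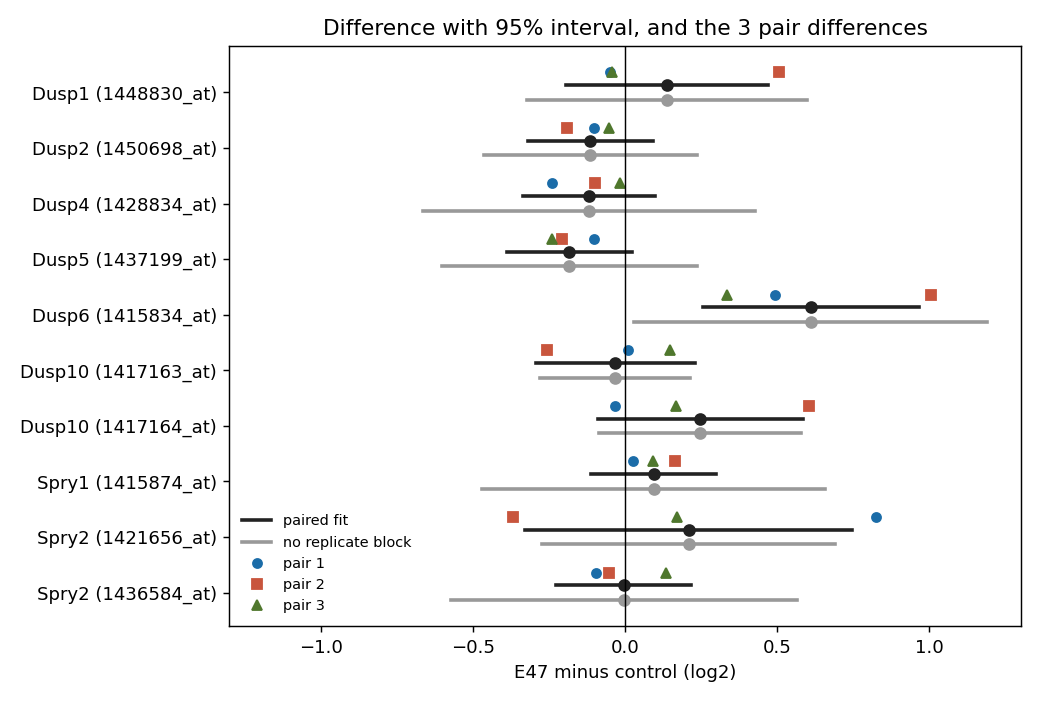
Difference between E47 and control (horizontal axis, log2) for each probe set, with the 95% interval of the paired fit in black and of the fit without the replicate block in grey, and the 3 pair differences as coloured symbols. Dusp6 (0.61) is the probe set whose intervals lie wholly above 0, and this p did not survive adjustment over all probe sets.

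The levels of the 10 probe sets were also compared between the 3 experiments. Experiments differed in mouse age and pool size, and these cannot be told apart from whatever else differed between the experiments. Spry1 had means of 9.05, 9.80 and 9.27 in experiments 1 to 3, so experiment 2 was the highest in both groups. Dusp4 had means of 11.27, 10.57 and 11.14, with experiment 2 the lowest. The brighter Spry2 probe set (1436584_at) had 5.23, 5.38 and 4.65, with experiment 3 the lowest.

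An F test of the experiment term in the same limma fit gave adjusted p = 0.0843 for Spry1, 0.105 for Dusp4 and 0.0982 for Spry2 (1436584_at). None of the 10 probe sets passed, where 0.604% of all probe sets did, and at an unadjusted p under 0.05 there were 6 of 10, against 12.7% of all. With 1 probe set per gene and adjustment over genes, Spry1 (0.0272), Spry2 (1436584_at, 0.0341) and Dusp4 (0.0368) differed between experiments, and 3.20% of all genes did. The other Spry2 probe set (1421656_at) had means of 4.84, 4.97 and 4.74, with adjusted p = 0.888 in the fit over all probe sets. As a mean over its probe sets Spry2 had adjusted p = 0.223 in the F test. The calls between experiments changed with the settings of the fit. With an intensity trend over all probe sets Spry1 (0.00500) and Dusp4 (0.00342) passed, and Spry2 (1436584_at, 0.0673) did not. Dusp2 (11.53, 11.11 and 11.39), Dusp5 (9.81, 9.73 and 10.24) and Dusp6 (9.81, 9.33 and 9.11) had adjusted p = 0.270, 0.177 and 0.284.

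Sums of NK, CD8 and B cell markers were also higher in experiment 2, without a test of the sums. The summed intensity of the 3 measured of 4 NK cell markers was 410.9 to 523.3 there and 174.4 to 223.7 in experiments 1 and 3. This came from Klrd1, with log2 levels of 8.79 and 8.35 against 6.68 to 7.21, while Ncr1 lay between 3.70 and 3.89 on all arrays. The CD8 markers, 2 of 2 measured, summed to 209.1 to 326.9 in experiment 2 and 139.9 to 192.0 elsewhere. The 5 measured of 6 B cell markers summed to 184.8 to 202.5 against 150.6 to 172.8. No marker was listed at 0, the lowest being Itgam at 3.02 to 3.66 (log2). The part of these markers, and of the Foxp3 level, in the differences of Spry1 and Dusp4 was not tested. The cells had been sorted as CD4+Thy1.1+, and the purity after the sort was not analysed here.

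**Figure D3:**
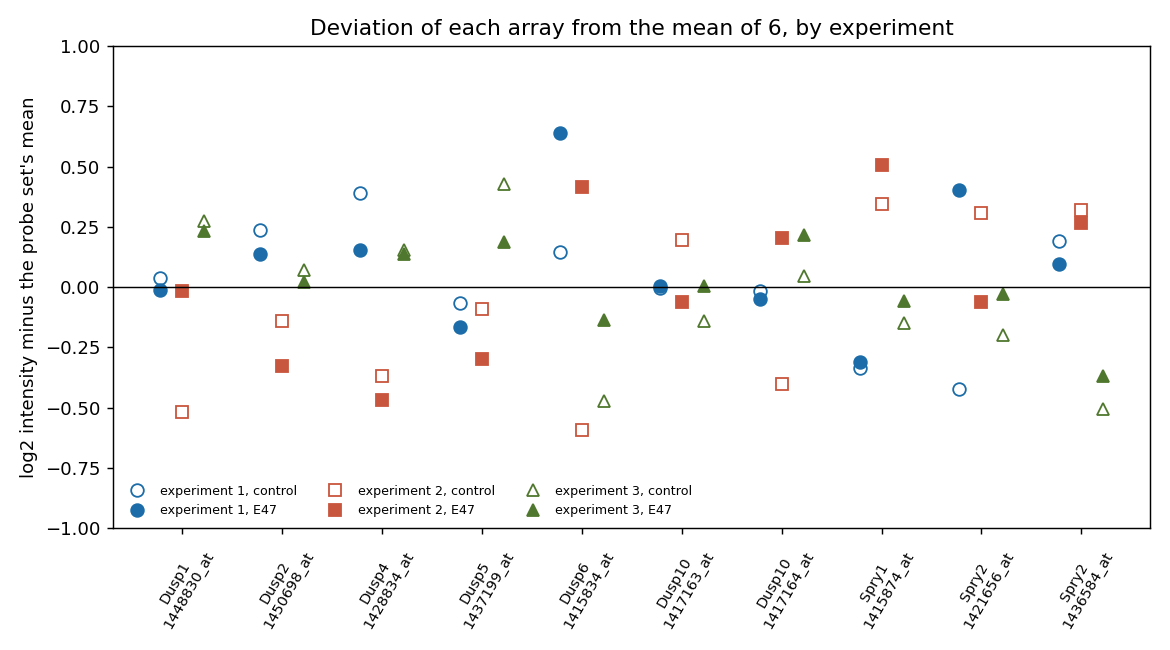
Deviation of each array from the mean of its probe set over the 6 arrays (vertical axis, log2), by experiment, with open symbols for control and filled symbols for E47 samples. For Spry1, Dusp4 and Spry2 (1436584_at) the open and filled symbols of an experiment lie together, for example 9.72 and 9.88 for Spry1 in experiment 2. For Dusp6 they part. The symbols also part for Dusp1 and Dusp10 (1417164_at) in experiment 2, and for Spry2 (1421656_at) in experiments 1 and 2.

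Dusp6 was the only member whose level spanned at least 1 log2 unit over the 6 arrays (1.23). The genes with the most similar profile, by Euclidean distance between 6 mean-centred log2 values, were Prkd2, which encodes a protein kinase D (distance 0.479), Ppt1, a lysosomal thioesterase (0.497), and Phc2, a Polycomb protein (0.502). Their differences between E47 and control were 0.66, 0.56 and 0.49, and none passed (adjusted p = 0.0680, 0.219 and 0.196). A profile over the same 6 arrays contains the contrast itself, so these differences are a description.

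The rest of the MAPK network was read from 7 lists holding 80 genes, of which 74 were measured, with 1 probe set per gene, the brightest. In the paired fit over all probe sets 1 of the 74 rose and 0 fell, against 0.368% and 0.0715% of all genes. At an unadjusted p under 0.05 there were 6 higher and 15 lower of the 74, against 799 higher and 1032 lower of all 18193 genes. The lists were chosen with earlier results of these data known, so these counts are a description only. The median difference over the listed genes was -0.05, against -0.03 over all genes. Whatever their p, 46 of the 74 were lower in E47 and 28 higher, against 10501 lower and 7692 higher of all 18193 genes. The counts of direction in each list below stand beside that share. The gene that rose was Rasa3, which encodes a GTPase-activating protein that switches off Ras family proteins.

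Rasa3 (1415850_at) had log2 levels of 7.30, 8.57 and 7.27 in control and 8.40, 9.51 and 8.64 in E47 samples. The E47 sample was higher in each pair by 1.10, 0.95 and 1.37, and the groups overlapped because experiment 2 was the highest in both. The mean difference was 1.14 (SE 0.11, adjusted p = 0.0282). It passed in 8 of the 12 alternatives. The call did not hold when the pairing was handled otherwise: the adjusted p was 0.804 without the replicate block and 0.430 with it as a random effect. In paired fits with fewer arrays it was 0.0171 without experiment 1, 0.129 without experiment 2 and 0.258 without experiment 3. Among the 17 measured brakes on Ras and receptor signalling 8 were higher and 9 lower, with a median of -0.02. Dgkz, a kinase that consumes diacylglycerol, had a difference of 0.28 (adjusted p = 0.431) and Lrig1, a receptor antagonist, of -0.28 (adjusted p = 0.443).

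The phosphatases outside the 8 gave 0 calls. Of the 4 other MAPK phosphatases, Dusp16, which acts on JNK, had a difference of -0.32 (adjusted p = 0.379) on its brighter probe set and 0.05 on the other. Dusp7 had -0.18 (adjusted p = 0.732). Among 10 atypical dual-specificity phosphatases 7 were lower and 3 higher. Dusp14 had log2 levels of 8.09, 7.55 and 8.72 in control and 7.61, 6.98 and 8.16 in E47 samples. It was lower by similar amounts in each pair (0.48, 0.57 and 0.56 lower), and the groups overlapped because of the spread between experiments. Its mean difference was -0.54 (SE 0.08, adjusted p = 0.114, and 0.0376 when 1 probe set per gene was adjusted over genes, where 1.14% of genes passed). Dusp14 passed in 3 of the 12 alternatives, and its adjusted p without the replicate block was 0.873. Dusp23 had -0.28 (adjusted p = 0.540).

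Of the 5 other Sprouty and Spred genes 4 were lower and 1 higher, with a median difference of -0.19, and 0 passed. Spred1, a Sprouty relative that recruits neurofibromin to Ras, had log2 levels of 8.35, 8.15 and 8.29 in control and 8.03, 7.81 and 7.92 in E47 samples. All 3 E47 samples lay below all 3 control samples, with a difference of -0.34 (SE 0.08, adjusted p = 0.312). Its other 7 probe sets lay between -0.31 and 0.22. Spry4 had a difference of -0.32 (adjusted p = 0.440) on a dim probe set, and its other 3 gave -0.05, 0.09 and 0.61, so its probe sets disagree.

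The kinases themselves gave 0 calls. Of 11 measured of 16 genes of the Ras-ERK cascade 5 were higher and 6 lower (median -0.03). Nras had -0.22 (adjusted p = 0.540) and Sos2, which loads Ras with GTP, had -0.18 (adjusted p = 0.651). In the p38 and JNK cascades 8 of 9 measured genes were lower (median -0.13), where 10501 of all 18193 genes were lower. Map2k3, which activates p38, had -0.30 (adjusted p = 0.393) and Mapk11, a p38 kinase, also -0.30 (adjusted p = 0.398).

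Genes known to respond to ERK were split in direction. Of 18 measured, 8 were higher and 10 lower (median -0.09), and 0 passed in the paired fit over all probe sets. Egr2, a zinc finger factor induced by T cell receptor signals, had 10.31, 9.89 and 9.84 in control and 9.55, 9.24 and 9.17 in E47 samples, with no overlap. Its difference was -0.69 (SE 0.08, adjusted p = 0.0582). Epha2, a receptor tyrosine kinase gene, had 6.12, 5.96 and 5.93 in control and 6.68, 6.65 and 6.60 in E47 samples, also with no overlap. Its difference was 0.64 (SE 0.08, adjusted p = 0.0751). Adjusted over genes with 1 probe set each, where 1.14% of genes passed, Egr2 (adjusted p = 0.0161) and Epha2 (0.0221) passed. The adjusted p of Dusp6 there was 0.148. Egr2 passed in 7 and Epha2 in 6 of the 12 alternatives. Without the replicate block their adjusted p was 0.431 and 0.0797. In paired fits it was 0.400 and 0.570 without experiment 2, and 0.464 and 0.548 without experiment 3.

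**Figure D4:**
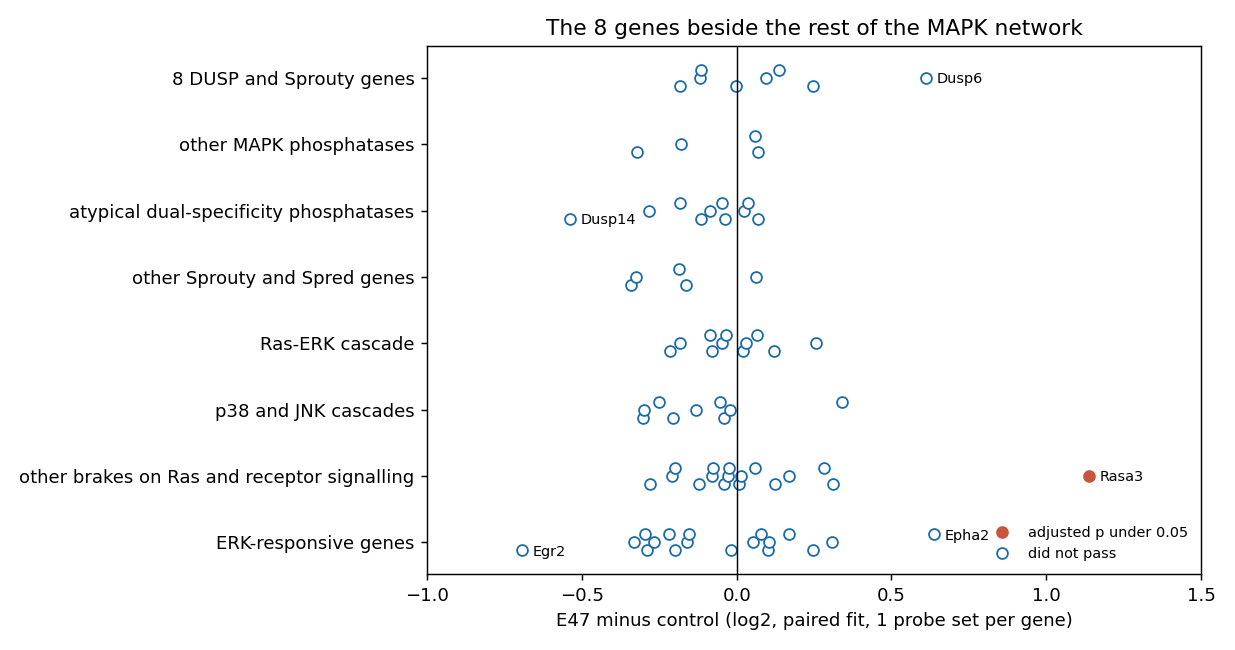
Difference between E47 and control (horizontal axis, log2, paired fit, 1 probe set per gene) for the 8 DUSP and Sprouty genes and for the 7 lists of the MAPK network; each circle is a gene, filled where the adjusted p is under 0.05, and vertical offsets within a row only separate the circles. Rasa3 (1.14) is the filled circle, and of the 8 genes Dusp6 (0.61) lies farthest from 0.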

How the data were processed

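Affymetrix values were deposited by the authors as 1 intensity per probe set and array. RMA is the tool named in the submitters' processing notes, with no version. RMA usually gives log2 values, but the deposited intensities were linear, so log2 was taken here with no pseudocount. Of 45101 probe sets 64 Affymetrix controls were left out and no dim probe set was removed. The annotation gave 1 symbol to 34945 of the rest, several to 932 and none to 9160. All 45037 were fitted with limma 3.58.1 in R 4.3.3 (lmFit, eBayes, two-sided, Benjamini-Hochberg, threshold 0.05), with group and experiment as terms. The fit was also tested on simulated data. There the paired fit recovered 0% of the changes of 0.5 log2, 52% of those of 1 and 92% of those of 2. Small differences such as those of most members could thus be missed. Arrays carry no read depth, and 3 per group limit the precision.

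The pairing comes from the design text, which gives 3 independent experiments with 1 sample of each construct, and from the shared replicate numbers, mouse ages and pool sizes. Deviations from the group means correlated at 0.09, 0.52 and 0.31 for same-numbered arrays, and the first is below the limit of 0.1, so the pairing rests on the labels. Differently numbered arrays had -0.43 to 0.22. The members and lists were chosen with earlier results of these data known. Named genes were the 8 members, Tcf3, and from each list those past the threshold and the 2 of lowest p that did not pass. For members spanning at least 1 log2 unit the 3 genes of nearest profile were added.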

Additional observations from a re-analysis of the deposited data

How the results depend on the processing

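Of the member probe sets tested, 0 passed between E47 and control in each of the 12 alternatives (no replicate block, the replicate block as a random effect, 1 probe set per gene, the mean of probe sets, the brighter probe sets only, median centring, quantile normalization, log2(value + 16), an intensity trend, and each pair left out). Signs turned for 6 of the named probe sets. The Spry2 probe set 1436584_at gave 0.10 as a mean over probe sets, 0.013 with median centring and 0.0173 with quantile normalization, and -0.0733 to 0.042 with a pair left out. Dusp10 (1417163_at) gave 0.0059 with quantile normalization and -0.12 to 0.0788 with a pair left out, Dusp1 -0.0453 to 0.23, Spry2 (1421656_at) -0.10 to 0.50 and Dusp7 -0.33 to 0.0027. Spry4 gave 0.0814 as a mean over probe sets. Counts over all probe sets were 122 (107 higher, 15 lower) and moved more. Without the replicate block there were 52, of which 52 higher and 0 lower, and 0 listed genes rose. With the block as a random effect 6 were lower. With 1 probe set per gene there were 208 (66 lower), and with the mean of probe sets 201 (67 lower); each gave 2 listed genes higher and 2 lower, and 3 and 2 members between experiments. The brighter probe sets alone gave 41 lower, 2 listed genes higher, 1 lower and 1 member (Spry1) between experiments. Quantile normalization gave 1 listed gene lower. With log2(value + 16) there were 25 lower, 1 listed gene lower and 1 member (Spry1) between experiments. The intensity trend gave 558 (362 higher, 196 lower), 3 listed genes higher and 4 lower, and 4 members between experiments (Dusp2, Dusp4, Dusp5 and Spry1). With a pair left out the counts ran from 4 (without experiment 3) to 551 (without experiment 1), with 4 to 486 higher, 0 to 65 lower, 0 to 2 listed genes higher and 0 to 1 lower. The causes of these shifts were not tested. Detection above background could not be read from the files, which limits what the dim probe sets of Spry2 and Dusp10 can show.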
